A study of Mus musculus with 15 samples.

Results

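In mouse J1 embryonic stem cells (ESCs), the deposited lists held 107222 peaks of H3K4me1 and 64342 peaks of H3K27ac, 171564 of the 439369 peaks in the 6 lists of the series. These peaks were divided by whether a peak shared at least 1 bp with a peak of the other mark. Overlapping peaks were then joined into regions, which gave 114468 regions in all. Of these, 38480 held peaks of both marks and are termed co-marked, 64948 held H3K4me1 alone and 11040 held H3K27ac alone.

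The series profiled both marks by chromatin immunoprecipitation and sequencing in ESCs and in expanded potential stem cells of the D-EPSC and L-EPSC types. The ESCs were the J1 line, strain 129SV, grown on inactivated mouse embryonic fibroblast feeders or on gelatin, in serum medium with leukemia inhibitory factor (LIF) and the 2i inhibitors CHIR99021, which blocks the kinase GSK3, and PD0325901, which blocks MEK in the ERK pathway. They are 1 cell line, carry no engineered allele that the labels name, and were prepared as 2 libraries per mark with 1 input library. Each mark was deposited as 1 peak list without heights or p values, and the sources used here do not say whether the 2 libraries were pooled, so no spread between replicates could be computed, no test was made, and each difference given compares 1 list with another. The read depth behind the lists is unknown, and the intervals given with shares cover counting of peaks only.

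H3K4me1 is placed on nucleosomes of enhancers and of the flanks of promoters, mainly by the methyltransferases MLL3 and MLL4. H3K27ac is placed by the acetyltransferases p300 and CBP at active enhancers and active promoters. By convention an enhancer with H3K4me1 alone is called primed or poised and one with both marks active, while nucleosomes at the first exon of an active gene carry H3K4me3 in place of H3K4me1. In ESCs the best known active enhancers lie around the genes of the pluripotency transcription factors, such as Pou5f1 (Oct4), Sox2 and Nanog.

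Sequences of the classes are shown first, because base composition differed between the classes at start sites. The co-marked region of greatest width lay in Myst4, the older symbol of the histone acetyltransferase gene Kat6b. The line below gives 300 bases of an intron of Myst4 at chr14:22356158-22356457 (mm9, plus strand), in the middle of the longest exon-free stretch under both marks there, with each CG in capitals.
Myst4, co-marked: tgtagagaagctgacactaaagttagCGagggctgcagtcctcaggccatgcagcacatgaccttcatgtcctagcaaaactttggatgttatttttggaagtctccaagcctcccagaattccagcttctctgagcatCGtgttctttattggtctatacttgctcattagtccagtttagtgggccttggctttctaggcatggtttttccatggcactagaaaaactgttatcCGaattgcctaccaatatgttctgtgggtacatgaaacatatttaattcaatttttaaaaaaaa

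The next lines give, for co-marked and H3K27ac-alone regions, 1 window of 300 bases each from a region at a start site, free of exons and with the median CG count and GC content of such windows in its class, again with each CG in capitals. A region counted as at a start site when its nearest base was within 1 kb, so the window itself can lie farther away. The first lies near Accsl at chr2:93710386-93710685, with its middle at -1222 bp from the start site (negative values lie upstream), and the other near the trafficking gene Mon1b at chr8:116159241-116159540, at -459 bp (mm9, plus strand). These windows were chosen after the composition of the classes was known. They hold 3 and 17 CG in that order, the medians over 5402 and 689 such windows. The median over 7195 such windows of H3K4me1-alone regions was 4.
Accsl, co-marked: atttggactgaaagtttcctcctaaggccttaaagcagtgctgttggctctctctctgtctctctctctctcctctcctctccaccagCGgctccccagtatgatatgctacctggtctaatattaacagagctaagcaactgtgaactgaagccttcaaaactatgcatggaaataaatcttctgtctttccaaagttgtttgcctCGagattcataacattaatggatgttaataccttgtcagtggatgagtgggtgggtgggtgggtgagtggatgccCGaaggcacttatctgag
Mon1b, H3K27ac alone: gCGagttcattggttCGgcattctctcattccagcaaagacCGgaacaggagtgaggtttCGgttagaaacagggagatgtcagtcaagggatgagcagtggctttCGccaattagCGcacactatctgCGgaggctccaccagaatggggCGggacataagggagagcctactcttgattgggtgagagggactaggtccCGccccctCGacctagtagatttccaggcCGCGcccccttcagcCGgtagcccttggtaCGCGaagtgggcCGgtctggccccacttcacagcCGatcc

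Most acetylated peaks lay on H3K4me1, while most H3K4me1 peaks carried no acetylation. Of the H3K27ac peaks, 53302 (82.8%) met an H3K4me1 peak, and these held 93.4% of the bases of that list. Of the H3K4me1 peaks, 42274 (39.4%, 95% Wilson interval 39.1 to 39.7) met an H3K27ac peak. H3K4me1 peaks with acetylation were the wider ones, with a median of 2246 bp against 861 bp for those without, so the minority of peaks held the greater part of the bases, and peaks without acetylation held 34.0% of them. H3K27ac peaks with and without H3K4me1 had medians of 1048 and 519 bp.

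Joined into regions, the classes kept this order of width. Co-marked regions had a median width of 2710.5 bp, with the middle 80% between 1026 and 8757 bp, and spanned 161 Mb or 66.3% of all bases under a peak. H3K4me1-alone regions had a median of 861 bp and spanned 75.1 Mb. H3K27ac-alone regions had a median of 519 bp, and 90% of them were under 1197 bp. The share of regions that were co-marked rose with width, from 2.00% of those under 500 bp to 32.9% of those of 1 to 2 kb and 90.2% of those of 5 to 10 kb. Among 3032 regions of 10 kb or more, 3005 were co-marked and 27 held H3K4me1 alone. Width itself raises the chance of sharing a base with another peak. With the stricter rule that the midpoint of one peak lie inside the other, the median width of co-marked regions was 2791 bp and that of H3K27ac-alone regions 599 bp. Either midpoint counted, so a wide peak over a narrow one still met this rule. It therefore cannot show what part width plays.

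**Figure D1:**
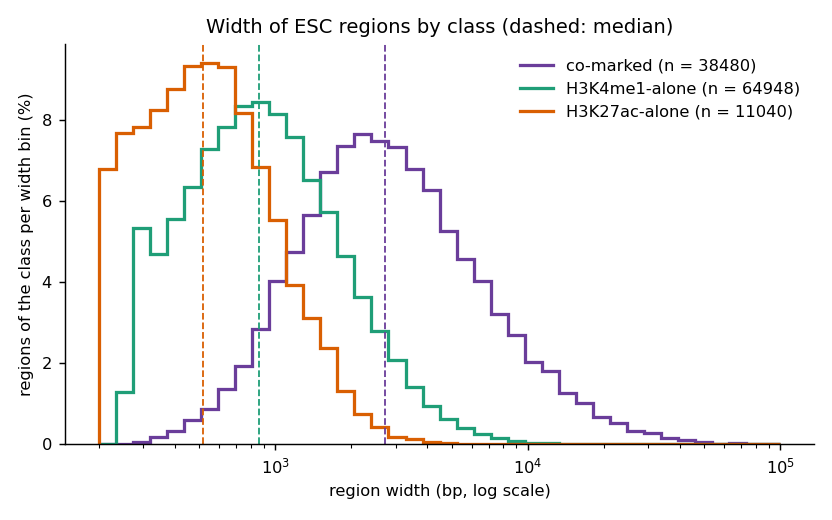
Distribution of region width in ESCs, on a logarithmic axis in bp, as the percentage of each class in each width bin. Dashed lines mark the medians of 519 bp for H3K27ac-alone, 861 bp for H3K4me1-alone and 2710.5 bp for co-marked regions, and almost all regions beyond 10 kb belong to the co-marked class.

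Inside co-marked regions the usual arrangement was 1 broad H3K4me1 peak with narrower acetylation on it. A single peak of each mark made up 27651 (71.9%) of these regions, and 7654 (19.9%) had 1 H3K4me1 peak over 2 or more H3K27ac peaks, against 1708 (4.44%) with the reverse. Of the bases spanned, 52.5% lay under both marks, 37.9% under H3K4me1 only and 9.55% under H3K27ac only. The arrangement differed with position. Away from start sites, 63.0% of 47853 H3K27ac peaks with H3K4me1 lay wholly inside 1 H3K4me1 peak. Within 1 kb of a start site 17.6% of 5449 did so, and 56.3% reached beyond 1 end of the H3K4me1 peak. A further 11.8% there bridged H3K4me1 peaks with both ends inside them, against 2.65% elsewhere.

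Each class lay mostly away from start sites, taken as the 5′ ends of 22350 protein-coding genes. A region counted as at a start site when its nearest base was within 1 kb. This held for 16.7% of co-marked (95% Wilson interval 16.4 to 17.1), 14.7% of H3K4me1-alone (14.4 to 14.9) and 21.2% of H3K27ac-alone regions (20.5 to 22.0). The first value depends on the point of the region used, and the part of width in this was not tested. When the midpoint of the region was used, the shares were 5.95%, 7.51% and 20.5%, so that co-marked regions fell below H3K4me1-alone regions while H3K27ac-alone regions stayed highest. Only 2.24% of H3K4me1-alone regions covered the first base of a gene, against 9.31% of co-marked and 9.50% of H3K27ac-alone regions. Regions of each class were wider at start sites than elsewhere. The medians were 3581 and 2569 bp for co-marked, 944 and 847 bp for H3K4me1-alone, and 618 and 500 bp for H3K27ac-alone regions. A wider region more easily has its nearest base within 1 kb of a start site, and the part of this was not tested. Off start sites, 28.1% of co-marked, 34.3% of H3K4me1-alone and 29.5% of H3K27ac-alone regions lay in introns, and 34.6%, 35.6% and 39.8% lay outside protein-coding genes.

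Counted over genes, 6584 of 22350 (29.5%) had a co-marked region within 1 kb of the start site. A further 5439 (24.3%) had H3K4me1 alone, 637 (2.85%) had H3K27ac alone, and 1374 (6.15%) had both marks in separate regions. The remaining 8316 (37.2%) had no peak of either mark. At the first base itself 4171 genes had H3K27ac without H3K4me1, 1920 had H3K4me1 without H3K27ac, 624 (2.79%) had both and 15635 had neither.

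The profile across start sites showed H3K4me1 on either side of a gap and acetylation in the gap. At the 7979 start sites with an H3K27ac peak within 1 kb, H3K4me1 covered 11.3% at 200 bp downstream, 63.7% at 1 kb upstream and 72.2% at 2 kb downstream. H3K27ac covered 60.1% at the first base and 69.0% at 200 bp downstream, and fell to 22.8% at 2 kb downstream. Bases under both marks reached 32.1% at 1 kb upstream and were 7.82% at the first base. Choosing start sites by an H3K27ac peak within 1 kb itself raises acetylation there. Over all 22350 start sites, H3K27ac covered 21.5% at the first base, 24.6% at 200 bp downstream and 9.16% at 2 kb downstream. At the 14371 start sites with no H3K27ac peak within 1 kb, the flanks were lower than at the 7979. H3K4me1 there was at 10.9% at 200 bp downstream, 18.9% at 1 kb upstream and 23.7% at 1 kb downstream.

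**Figure D2:**
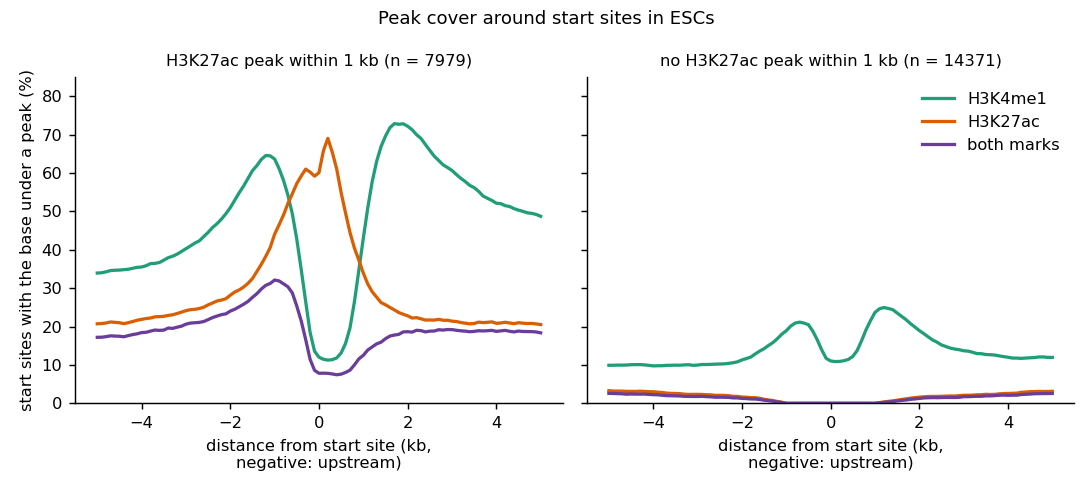
Percentage of start sites whose base at a given distance (kb, negative upstream) lies under an H3K4me1 peak, an H3K27ac peak or both. The panels show start sites with and without an H3K27ac peak within 1 kb. This split itself raises acetylation within 1 kb in the first panel and keeps it at 0 there in the second panel. At 200 bp downstream of the acetylated start sites H3K4me1 is at 11.3% and H3K27ac at 69.0%.

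H3K27ac-alone regions at start sites lay next to H3K4me1. Their median distance to the nearest H3K4me1 peak was 407 bp, 2129 of 2342 (90.9%) had one within 1 kb, and 1294 (55.3%) had one within 1 kb on each side. Elsewhere the median distance was 1802.5 bp, 34.3% of 8698 had an H3K4me1 peak within 1 kb, and 6.12% had one within 1 kb on each side. Over the whole class 5114 of 11040 (46.3%) had one within 1 kb. The reverse distance was longer. H3K4me1-alone regions lay a median of 9338.5 bp from the nearest H3K27ac peak, and 10.6% had one within 1 kb.

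H3K27ac-alone regions at start sites also stood apart in base composition. In the 300 bases at the middle of each region, or of its longest stretch under both marks for co-marked regions, those regions averaged 25.2 CG and 63.9% GC. The averages were 3.97 CG in co-marked regions at start sites, 5.49 in H3K4me1-alone regions at start sites, and 3.68, 4.37 and 4.25 in co-marked, H3K4me1-alone and H3K27ac-alone regions elsewhere. Windows tiled over the genome averaged 2.49 CG. These windows lay at different distances from the start sites, so they were also compared at like distances, a choice made after the values were seen. With the middle less than 250 bp from a start site, the averages were 28.1 CG in 997 H3K27ac-alone, 10.6 in 751 H3K4me1-alone and 6.81 in 238 co-marked windows. From 500 bp to less than 1 kb they were 20.8, 5.41 and 4.15 CG. Inside co-marked regions, bases under H3K27ac only had 2.77 CG per 100 bp, against 1.20 under both marks and 1.19 under H3K4me1 only.

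Letters bound by pluripotency factors were searched on both strands of the same windows. The letters TCAAGGTCA, read by the orphan receptor Esrrb, were in 2.05% of co-marked and 1.90% of H3K4me1-alone windows away from start sites, in 0.644% of H3K27ac-alone windows there, in 1.72% of all regions and in 0.639% of genome windows. The letters GGGTGTGG, a form of the Klf site, were in 4.78%, 6.45% and 2.43% of the 3 classes away from start sites, in 5.14% of all regions and in 1.79% of genome windows. The octamer ATGCAAAT of Pou factors was in 1.94%, 3.04% and 1.13% of them, in 2.31% of all regions and in 2.62% of genome windows. For the Sox letters CATTGTT the shares were 4.95%, 5.46% and 4.14%, with 4.94% over all regions and 5.98% over genome windows. The Esrrb and Klf letters were thus more frequent in co-marked and H3K4me1-alone windows away from start sites than in genome windows, and the Sox letters were less frequent. The Pou letters had no single direction in H3K4me1-alone regions, since they exceeded the genome share in the windows away from start sites but not in those at start sites, with 1.40%, and over all bases of the class there were 7.77 per 100 kb against 9.15 in the genome. The windows also differed in GC content, with 47.0% and 47.3% in the co-marked and H3K4me1-alone windows against 41.8% in the genome, and its part in these shares was not tested. No motif contains another, and a match describes the sequence and shows no binding.

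At the core pluripotency genes, the exon-free match under both marks nearest the start site is shown, with the matched letters in capitals. At Pou5f1 it was the Klf letters, at -2053 bp from the start site and chr17:35640899-35640958. At Sox2 and Nanog it was the Sox letters on the reverse strand, at -1979 bp and chr3:34546918-34546977 and at -1517 bp and chr6:122655960-122656019 (mm9, plus strand printed). Pou5f1 had 1 Klf match in 13822 bases searched and 0 of the other letters. Sox2 had 2 Pou, 1 Sox, 1 Esrrb and 0 Klf matches in 15903 bases, and Nanog 1, 1, 0 and 2 in 16891. Matches close to the ends of a stretch were left out of these counts and of the choice of the nearest match. All bases of the stretches were still counted as searched. The rates over all bases under both marks in co-marked regions had no such margin and included exons. They were 5.41 Pou, 15.6 Sox, 5.55 Esrrb and 13.8 Klf matches per 100 kb.
Pou5f1, Klf letters: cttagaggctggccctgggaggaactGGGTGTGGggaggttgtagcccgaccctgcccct
Sox2, Sox letters: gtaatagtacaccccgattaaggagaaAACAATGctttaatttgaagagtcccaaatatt
Nanog, Sox letters: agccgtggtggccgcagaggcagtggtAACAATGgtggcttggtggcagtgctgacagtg

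All of the 20 widest co-marked regions overlapped a protein-coding gene, and 12 of them covered a start site. Over all co-marked regions, 9.31% covered a start site, and 34.6% lay off start sites and outside protein-coding genes. Width itself raises the chance of meeting a gene or a start site, and its part was not tested. The region in Myst4 was 89500 bp wide (chr14:22320799-22410298), a single H3K4me1 peak with 23 H3K27ac peaks on 45.1% of its bases. The next was 86970 bp in Tns3, a focal adhesion gene, with 82.0% of bases under both marks. A region of 83959 bp lay over Zfp710, a zinc finger gene. The region over Ccr4 and Trim71 followed with 77599 bp. Trim71 encodes an RNA-binding ubiquitin ligase of early embryos, and Ccr4 a chemokine receptor.

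Several of the others among the 20 lay at genes of signalling and development. Ror2, a receptor for Wnt5a, had 76088 bp that began 57925 bp from its start site. Sall1, a zinc finger factor of the same family as Sall4, had 72040 bp (chr8:91509420-91581459). Jarid2, a partner of Polycomb repressive complex 2, had 67701 bp (chr13:44828290-44895990). Tcf7l1, the Wnt pathway repressor that acts on the pluripotency genes, had 60015 bp (chr6:72669311-72729325), and Ski, an antagonist of TGF-β signalling, had 53274 bp.

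The make-up of these regions varied widely. Of the 20, 7 held a single H3K4me1 peak, and the number of H3K27ac peaks ran from 2 to 23. The share of bases under both marks had a median of 67.6%. In Uck2, a uridine kinase gene, 44.4% of 63151 bp lay under both marks, with 3 H3K4me1 and 10 H3K27ac peaks. The highest value was 92.9% in the cytoskeletal linker gene Macf1, with 3 H3K4me1 and 2 H3K27ac peaks over 64485 bp.

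**Figure D3:**
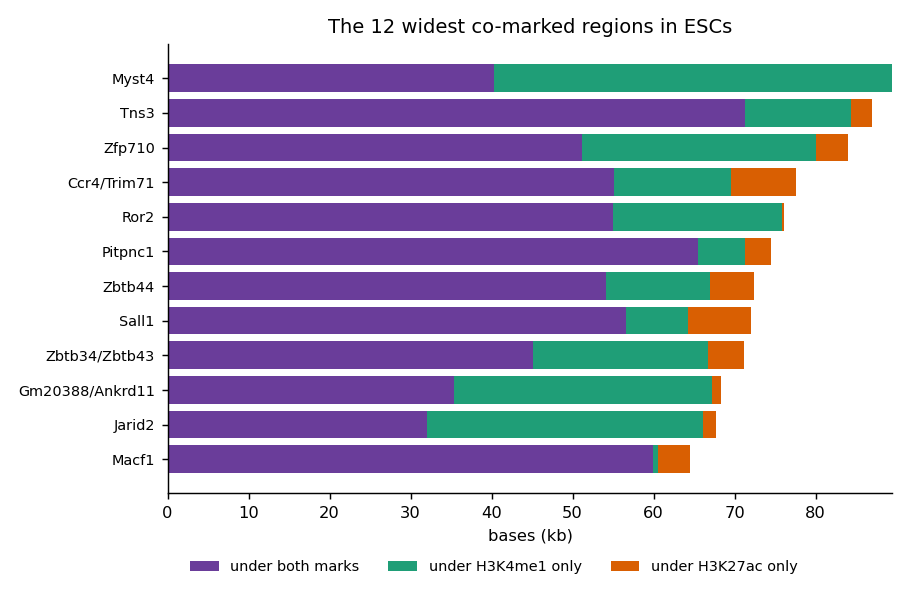
Bases (kb) under both marks, under H3K4me1 only and under H3K27ac only in the 12 widest co-marked regions, named by the protein-coding genes they overlap. Widths run from 64485 to 89500 bp, with 92.9% of Macf1 and 45.1% of Myst4 under both marks.

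Ranked by the longest unbroken stretch under both marks, other genes led. Sall1 was then first with 39863 bp, and 3 of the 20 widest regions stayed among the first 20. Klf2, a naive pluripotency factor, overlapped a region with a stretch of 33950 bp. The start site of Epha2, an ephrin receptor, lay 94 bp from the edge of a region with a stretch of 29168 bp. Another region, with a stretch of 28913 bp, overlapped no gene. Its nearest start site was that of Klf4, 49287 bp from the edge of the region. Pitpnc1 and Macf1 kept long stretches, of 35095 and 30605 bp.

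The widest regions of the single marks were far smaller. H3K4me1-alone regions reached 16857 bp in 1700081L11Rik (chr11:104278082-104294938), 15865 bp in Tmem64 and 15666 bp in Zbtb10, and 8 of the 10 widest overlapped a gene without covering a start site. Over the whole class, 2.24% covered a start site, and 35.6% lay off start sites and outside genes. The fourth widest, of 14974 bp, lay outside genes, 126270 bp from the start site of Myc. H3K27ac-alone regions reached 5686 bp near Cd38 (chr5:44243133-44248818), 11230 bp from its start site, and 5156 bp in Meis2, a homeobox gene, 305 bp from its start site. Of the 10 widest, 5 lay at start sites (against 21.2% of the class), among them those of the proteoglycan gene Ogn with 4229 bp and of Anp32a with 4114 bp.

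Gaps between co-marked regions were shorter than those between regions of the other classes. The median gap between neighbours of a class was 6977.5 bp for co-marked, 9865.5 bp for H3K4me1-alone and 70320 bp for H3K27ac-alone regions, and a class with more regions has shorter gaps. H3K4me1-alone regions were the more numerous, yet their gaps were longer. Gaps were measured from edge to edge, so the greater width of co-marked regions also shortens them. The part of width in the gaps and in the clusters below was not tested. Neighbours were joined up to a fixed distance, under which the widest gap joined between co-marked regions was 12496 bp and the narrowest left open 12503 bp. Co-marked regions then formed 14884 clusters, of which 2102 held at least 5 regions and 46.1% of the class. For H3K4me1-alone regions 3068 clusters of that size held 33.6%, and for H3K27ac-alone regions 23 held 1.22%, with 69.3% of that class lying alone.

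The cluster with the most bases under both marks was at Rbpms, an RNA-binding protein gene, Dctn6, Mboat4 and Leprotl1 (chr8:34870752-35210245), with 35 regions over 339 kb and 183 kb under both marks. Etl4 held 25 regions and 172 kb under both marks, none of them over a start site. The cluster with the greatest number of regions, 39, spanned 415 kb over the glycolytic gene Eno1 and the corepressor gene Rere. Others of the first 15 overlapped Tcf7l1, with 145 kb under both marks, and Tgif1, a repressor in TGF-β signalling, with 140 kb. Further ones overlapped Socs3, the feedback inhibitor of STAT3, with 134 kb, and Smad7, the inhibitor of TGF-β receptors, with 133 kb. Jmjd1c followed with 129 kb and Jarid2 with 126 kb. These bases are those of the whole cluster. All of these but the Jarid2 cluster overlapped other genes too, among them Kcmf1 beside Tcf7l1 and Dlgap1 beside Tgif1. The Socs3 cluster also overlapped Tk1 and Birc5, the Smad7 cluster Dym and the Jmjd1c cluster Reep3. The median cluster had 1 region and 1.74 kb under both marks.

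Around start sites, the share of the 20001 bp within 10 kb on either side that lay under both marks was above 0 for 10127 genes (45.3%). The median over all genes was 0 and the 90th percentile 26.1%. BC096441 and Tnfsf12, which share a locus on chromosome 11, had 100% of these bases under both marks. Gm10094, in the Cnot1 region, had 97.9%, Pipox 97.4%, Ifitm1 94.8%, the zinc finger gene Zfp217 93.0%, Sept1 90.4%, the acetyltransferase gene Kat2b 89.4%, the kinesin gene Kif13b 88.9% and Mreg 88.8%.

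Of 30 genes of naive and core pluripotency, 25 had a co-marked region at the start site, against 29.5% of all genes. Their median share of bases under both marks was 41.9%, and 22 of the 30 reached the 90th percentile of all genes. The co-marked regions at their start sites had a median width of 15431 bp, against 3941 bp over all 6584 genes with one. Dppa5a had the highest share, 86.3%. The 5 without a co-marked region at the start site were Nr0b1, Lin28a and Zfp281, which had both marks in separate regions, Gbx2, which had H3K4me1 alone, and Esrrb, which had no peak there.

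The 8 markers that define ESCs, all from that list, gave the check of the label. Pou5f1 had 63.1% of the window under both marks, Tfcp2l1 62.7%, Nanog 52.1%, Sox2 36.0%, Zfp42 (Rex1) 35.2% and Klf4 13.5%. Esrrb had 0% around the most upstream start site of the annotation. Its signal lay in the gene body, where H3K27ac peaks of 21918, 12201 and 12278 bp covered the stretch from 105912 to 153278 bp downstream and 52.3 kb of the locus was under both marks. When any annotated transcript start was counted, chosen after these values were seen, 2 of the 5 starts of Esrrb had a co-marked region, and 8 of 8 markers had one in place of 7. This rule gives a gene with several starts more chances, and its share over all genes was not computed. Of 15 fibroblast markers, which feeder cells would bring, 0 had a co-marked region at the start site by either rule, 10 had H3K4me1 alone and 5 had neither mark. With 1 start site per gene, these states held for 29.5%, 24.3% and 37.2% of all genes. Within 10 kb of the start sites of the fibroblast markers, H3K27ac was at 0 for all but Pdgfrb, where 2.83% of bases lay under both marks. In the body of Col1a1, 8.82 kb of the locus did, with a widest co-marked region of 6385 bp.

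At Pou5f1 and Nanog acetylation ran across the start site with H3K4me1 on its sides, as the drawing of the loci shows. At Pou5f1, 1 H3K27ac peak ran from -12377 to 4122 bp, and H3K4me1 stopped at -600 bp and resumed at 2863 bp. At Nanog, an H3K27ac peak ran from -9548 to 3449 bp, and H3K4me1 stopped at -1207 bp and resumed at 3847 bp. At Sox2 both marks were absent at the first base, with H3K27ac ending at -464 bp and starting again at 453 bp, and H3K4me1 ending at -1539 bp and starting again at 4757 bp. At Klf4, an H3K27ac peak of 32527 bp began 49287 bp downstream of the start site, and an H3K4me1 peak of 28913 bp lay inside it.

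Of the 30 genes of the pluripotency list, 23 overlapped a cluster of at least 5 regions. Clusters of that size held 46.1% of co-marked regions. The share of all genes that overlap one was not computed, so the count cannot be set against a background. Nanog and Dppa3 shared a cluster of 22 regions over 233 kb with 92.0 kb under both marks, the 40th of 14884 by that measure. Tbx3 ranked 44th, Klf2 70th, Sox2 114th, Sall4 117th, Klf5 145th, Esrrb 231st and Pou5f1 418th. The cluster that overlapped Klf4 itself held 3.90 kb under both marks and ranked 4485th, and did not take in the wide stretch downstream. Utf1 ranked 1713th, Lin28a 3544th with 3 regions and Tcl1 5000th with 1 region, and Nr0b1, Gbx2 and Zfp281 overlapped no cluster.

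**Figure D4:**
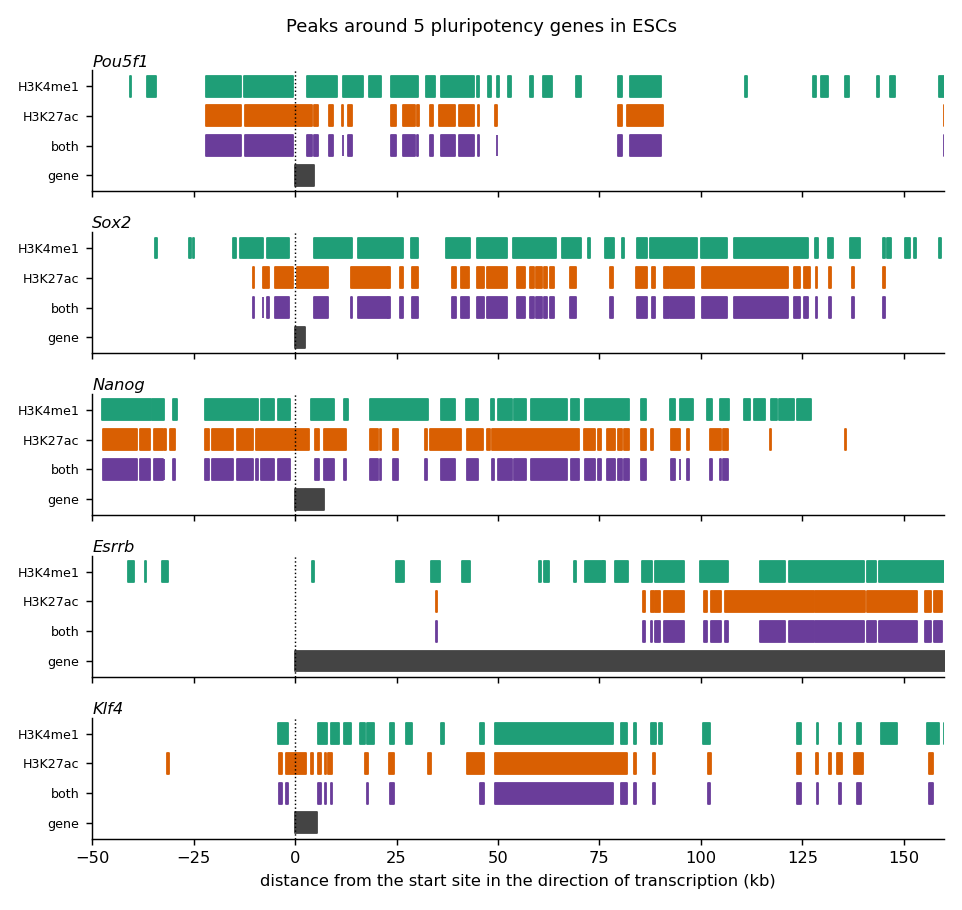
Peaks of H3K4me1 and H3K27ac, bases under both, and the gene body at 5 pluripotency genes, drawn by distance from the annotated start site (kb, downstream to the right). At Pou5f1 and Nanog acetylation covers the start site inside a gap of H3K4me1, and at Esrrb and Klf4 the widest doubly marked stretches lie over 40 kb downstream.

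Genes of the LIF, Wnt and ERK pathways, on which the medium acts, and of Nodal signalling were compared with all genes. Of all genes, 29.5% were co-marked at the start site, and their median share of bases under both marks was 0%. Of 12 LIF and STAT3 pathway genes, which include Tfcp2l1, Gbx2 and Klf4 of the list above, 10 were co-marked at the start site, with a median of 41.1% of bases under both marks. Socs3 and the kinase Pim3 were examples, with co-marked regions of 14851 and 5890 bp, while the kinase gene Jak1 had the marks apart. Of 13 Nodal and Lefty genes 9 were co-marked, with a median of 26.4%. Nodal, the ligand, had 70.0% of bases under both marks and its inhibitor Lefty2 69.4%, and Cer1, another inhibitor, had no peak of either mark in the window. Of 19 Wnt genes 13 were co-marked with a median of 8.61%. Of 18 targets and feedback genes of ERK, the pathway that PD0325901 blocks, 8 were co-marked with a median of 7.65%, also above the values over all genes. Spred2 had the highest share of that list, 58.7%, and Dusp4, Dusp5, Fosl1 and Phlda1 had H3K4me1 alone and 0% under both marks.

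Regulators of other lineages mostly carried H3K4me1 without acetylation at the start site, against 24.3% of all genes. This was so for 9 of 14 trophoblast genes, among them Cdx2, Gata3 and Krt8, for 9 of 13 primitive endoderm genes, among them Gata6, Sox17 and Foxa2, and for 13 of 19 neural and mesoderm regulators, among them Pax6, Olig2 and Hand2. It was so also for 32 of 39 Hox genes and for 8 of 14 genes of the formative and primed epiblast, among them Fgf5 and Dnmt3b. The median share under both marks was 0% in each of these lists, as it was over all genes. Co-marked start sites among them were those of Tead4, with 38.6% of bases under both marks, Lama1 and Sparc, with 31.3% and 55.8%, Meox1, with 14.4%, Otx2, Sall2 and Tead2 of the epiblast list, and 4 Hox genes, Hoxc10, Hoxc12 and Hoxc13 among them. Nkx2-5 had the highest share of the neural and mesoderm list, 15.5%, with H3K4me1 alone at its start site.

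**Figure D5:**
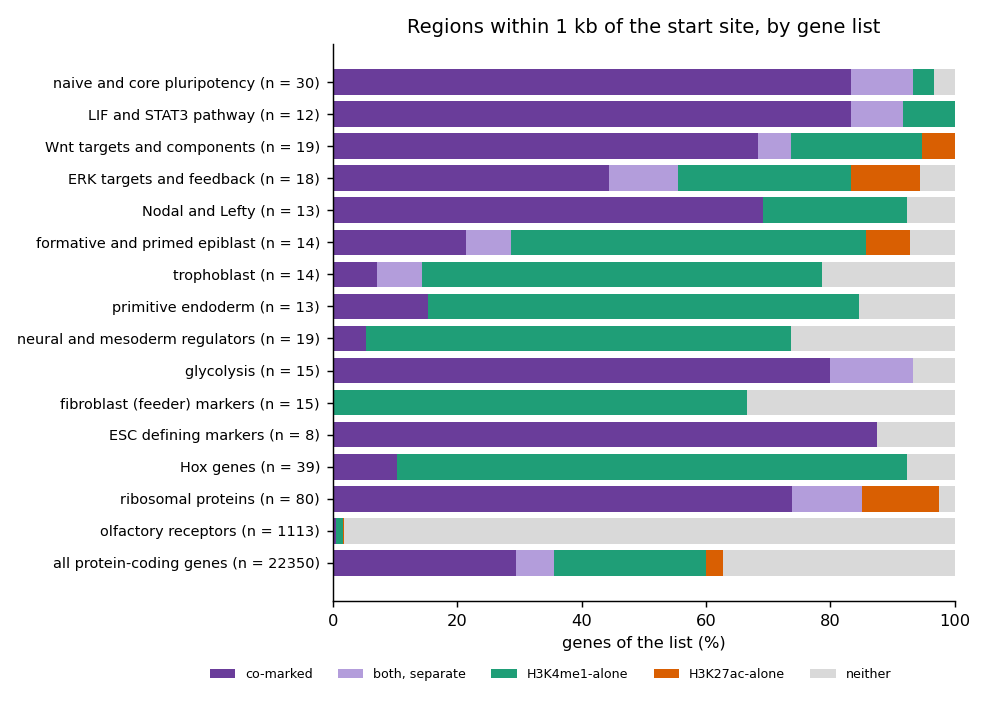
Percentage of genes in each list with a co-marked region, both marks in separate regions, H3K4me1 alone, H3K27ac alone or neither within 1 kb of the start site. Pluripotency and LIF genes are mostly co-marked, lineage regulators and Hox genes mostly carry H3K4me1 alone, and 37.2% of all genes have neither.

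Genes expressed in most cells were co-marked too, with regions of lower median width than the 15431 bp of the pluripotency list. Of 80 ribosomal protein genes, 59 were co-marked, against 29.5% of all genes, and 10 had H3K27ac alone, against 2.85%. None of the remainder had H3K4me1 alone, the state of 24.3% of all genes. Rps25, Rpl7 and Rpl15 were among the 10. The median share under both marks was 11.5% and the median width of their co-marked regions 3793 bp, close to that of all genes. Of 15 glycolytic genes 12 were co-marked, again against 29.5%, with a median of 24.4% and the highest share, 68.6%, at Gapdh. Their co-marked regions had a median width of 6867 bp, above the 3941 bp of all genes with one. Of 1113 olfactory receptor genes, a family known from olfactory neurons, 1093 (against 37.2% of all genes) had neither mark and 5 (against 29.5%) were co-marked.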

How the data were processed

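Mouse ESC, D-EPSC and L-EPSC samples were profiled by ChIP-seq of H3K4me1 and H3K27ac, and only the ESC lists were analysed. Per the labels and the study's methods, the authors trimmed reads with Trim Galore 0.6.3, aligned them to mm9 with Bowtie2 2.3.5, used SAMtools 1.10 and ran MACS2 in broad mode with the input library as control. Each deposited file holds only chromosome, start, end and peak name, and thresholds and pooling are not given in the sources used here. A broad-peak caller joins nearby enriched stretches, which bears on every width given here. Starts were read as counted from 0.

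Peaks were compared by at least 1 bp and joined into regions with Python 3.11.15 and numpy 2.4.6. Wilson intervals came from scipy 1.17.1. Genes, exons and sequence were those of GENCODE M1 and NCBIM37 (mm9), in which 0 peaks passed a chromosome end. 1 start site per gene was used, and 1 asked symbol (Sox1) could not be matched. The interval code was tested on simulated lists. Groups came from the labels. Named were the 20 widest co-marked and 10 widest regions of the other classes, the 15 clusters and 10 genes with most bases under both marks, list extremes and markers. Of the sequences planned, the windows of the widest single-mark regions and fixed upstream windows were replaced by the start site and motif windows. Members and lists were chosen with earlier results of these data known. A few items that the naming rule selects are not reported here.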

Additional observations from a re-analysis of the deposited data

How the results depend on the processing

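No paired analysis was possible because each mark was deposited as 1 list and no result came from a test, so there were no replicates to leave out either. Of 70 values of the classes and clusters under other settings, 25 stayed within their counting interval or within 1.5 times the count, and 45 moved. The midpoint rules on regions and the use of any transcript start were chosen after the data were seen.

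Requiring 50% of either peak, or the midpoint of one peak inside the other, gave median widths of 2791, 872 and 599 bp for co-marked, H3K4me1-alone and H3K27ac-alone regions, and shares at a start site of 14.3%, 15.6% and 25.8%, in which co-marked regions fell below H3K4me1-alone regions. Joining peaks over 1 kb gave 3253, 919 and 535 bp, and shares of 19.3% and 15.0% for the first 2. Peaks of at least 500 bp gave 3139, 1099 and 793 bp, shares of 18.2%, 15.1% and 23.5%, and 6708 H3K27ac-alone regions. The widest 50% of each list gave 21088, 30313 and 5338 regions, of 4124.5, 1883 and 1275 bp, and shares of 19.03% and 28.5% for co-marked and H3K27ac-alone regions. Start site windows of 500 bp gave shares of 13.3%, 7.10% and 20.0%, those of 2500 bp 22.1%, 21.0% and 23.3%, and all transcript starts 24.0%, 20.8% and 24.8%. Region midpoints gave 5.95% and 7.51% for the first 2 classes. Clusters of at least 5 co-marked regions numbered 1182 with a gap of 5 kb and 1280 without peaks within 2500 bp of a start site. In the settings that change the peaks kept or the overlap asked for, the order of the median widths was that of the main rule. The causes of these shifts were not tested beyond what each rule itself removes or joins.

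Joining peaks over 1 kb kept 13 of the 20 widest co-marked regions, and the longest unbroken stretch kept 3. Of 52 values of gene lists and names, 45 stayed and 7 moved. A list median stayed when it lay inside its interval, which is wide for short lists, such as 0 to 59.1% for Nodal and Lefty. The count therefore says little about how firm these medians are. Unknown read depth limits what the absence of a peak means, and a base outside a peak may carry the mark at a level not called.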

Other observations

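The X chromosome differed from the autosomes in its mix of classes. Of its regions, 344 (19.5%) were co-marked, 67.6% held H3K4me1 alone and 12.9% held H3K27ac alone. On the 19 autosomes the co-marked share ran from 31.0% on chromosome 13 to 36.8% on chromosome 17. There were 0.369 co-marked regions per protein-coding gene on the X chromosome, against 1.18 on chromosome 7, the lowest autosome, and 2.34 on chromosome 18, the highest. Co-marked regions on the X chromosome had a median width of 2241 bp, below the 2473 bp of chromosome 13, the lowest autosome, and H3K4me1-alone regions had 729 bp, below the 802 bp of chromosome 14. H3K27ac-alone regions, at 535 bp, lay within the autosomal range of 462 to 553 bp. Nr0b1, a pluripotency gene on the X chromosome, had no co-marked region at its start site, while Pgk1, a glycolytic gene there, had one of 2697 bp. The cause of these differences was not tested.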
